A study of Mus musculus with 4 samples.

Results

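The BCL2 family of mitochondrial apoptosis was followed in N9, an immortalised mouse microglial cell line, after exposure to nimodipine, a dihydropyridine blocker of L-type voltage-gated calcium channels. The family was taken as 10 genes chosen by symbol: the guardians Bcl2, Bcl2l1 and Mcl1, the effectors Bax and Bak1, and the BH3-only genes Bid, Bad, Bbc3, Pmaip1 and Bcl2l11. A probe set annotated to that symbol alone was present for 9 of the 10, out of 22180 genes compared, and Bax was not analysed here. RNA was measured on 4 Affymetrix arrays: 2 from vehicle-treated N9 cells, 1 from cells given 10 µM nimodipine and 1 from cells given 20 µM nimodipine. All 4 came from the same line in serum-containing medium, no exposure time is stated in the sources used here, and each dose had no replicate. The labels mention vehicle for each dose without saying which vehicle array goes with which dose, and nothing says that arrays came from separate cultures. The p-values below therefore rest on array-to-array spread alone, largely pooled over all genes, and that spread may be technical. Where both doses form 1 group, it also holds the difference between them.

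Proteins of the BCL2 family decide whether the outer membrane of the mitochondrion is opened during apoptosis. Guardians hold the effectors BAX and BAK in check, BH3-only proteins report stress by binding guardians or by activating effectors, and free effectors form pores that release cytochrome c, after which APAF1 assembles the caspase-activating apoptosome. In macrophages and microglia, MCL1, a protein with a short life, and the A1 proteins are known survival factors.

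Of 12 measured microglia and macrophage markers, 10 had a mean level no lower than the median probe set. P2ry12 and Tmem119, which mark microglia in the brain, lay below it, with levels of 4.34 to 4.82 and 4.57 to 4.79 on the log2 scale. Of 17 markers of astrocytes, neurons, oligodendrocytes, fibroblasts and endothelium, 10 were no lower either, and 12794 of all 22180 genes met this cut. The mean log2 level of the 17 was 5.31 and 5.27 with vehicle, 5.30 at 10 µM and 5.36 at 20 µM. The microglia and macrophage markers averaged 8.56 and 8.55 with vehicle, 8.35 at 10 µM and 8.57 at 20 µM. Their part in the results was not tested. Levels below are log2 values per probe set, which are not comparable between genes, so only differences within a gene are read.

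The sequences upstream of Bcl2 and Mcl1 are shown because, of the 9 genes, Bcl2 had the largest positive and Mcl1 the largest negative difference at 10 µM. Each is the 250 bases before a transcript start in RefSeq's promoter table (GRCm38.p6), 5′ to 3′ on the gene's strand, at chr1:106714291-106714540 (minus strand) for Bcl2 and chr3:95658471-95658720 (plus strand) for Mcl1. The Bcl2 start is the first base of its RefSeq gene span. The Mcl1 start lies inside the RefSeq gene span given below, which begins further upstream, so its window is not before the first base of the gene. Capitals mark matches, on either strand, to TGACG (the cAMP response element half-site), TGATGNAA (the element bound by C/EBP and ATF dimers, CHOP with ATF4 among them) or ACGTG (the core of the hypoxia response element).
Bcl2: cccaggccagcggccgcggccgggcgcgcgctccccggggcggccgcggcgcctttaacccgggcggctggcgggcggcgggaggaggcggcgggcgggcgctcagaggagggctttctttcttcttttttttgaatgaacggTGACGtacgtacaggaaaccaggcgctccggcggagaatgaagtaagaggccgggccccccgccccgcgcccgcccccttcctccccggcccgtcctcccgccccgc
Mcl1: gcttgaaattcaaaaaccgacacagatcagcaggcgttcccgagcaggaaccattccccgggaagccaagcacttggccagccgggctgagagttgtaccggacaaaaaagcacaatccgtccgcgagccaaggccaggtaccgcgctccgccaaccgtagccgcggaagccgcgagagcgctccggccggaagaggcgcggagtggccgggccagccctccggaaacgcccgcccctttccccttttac
The Bcl2 window held 1 match, a TGACG that begins 107 bases before the start, and the Mcl1 window, before that inner start, held none. Of 32851 mouse promoter windows of the same length, 17.8% held TGACG, 3.5% held TGATGNAA and 16.6% held ACGTG. Of the other family genes looked up, with 1 to 3 listed starts each, Bbc3 held TGACG at 1 of its 3 starts, 55 bases before it, and ACGTG at another, 63 bases before it; there the match sat in a palindrome and counted on both strands. Bax held ACGTG 8 bases before its start, also in a palindrome. TGATGNAA was in none of these windows, which did not include any of Pmaip1. A match describes these letters only and shows no binding.

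At 10 µM the guardians differed in direction. Bcl2 was higher and only just passed the test, a call that was lost with a robust variance prior and kept under the other alternatives tried. Mcl1 was lower on both of its probe sets and missed the test narrowly, and Bcl2l1 was within 0.50 of each vehicle array. Among BH3-only genes, Bbc3 (PUMA) was higher by 0.66 and Bcl2l11 (BIM) lower by -0.69 on the log2 scale, and neither passed the test. At 20 µM all 9 genes were within 0.32 of the vehicle mean. In a fit of 3 groups (vehicle, 10 µM, 20 µM) by limma with Benjamini-Hochberg adjustment over all genes, 1 of the 9 was called at 10 µM, beside 1.59% of all genes, and 4 of 9 had an unadjusted p under 0.05, beside 16.9%. The count at 20 µM was 0 of 9, beside 0% of all genes, and 0 of 9 had an unadjusted p under 0.05 there, beside 6.39% of all genes. That fit has 1 residual degree of freedom, from the vehicle pair, and assumes that a lone array varies as those do. limma adds a variance prior drawn from all genes, which brings the total degrees of freedom to 5.88. The SE, intervals and p-values of a gene therefore rest mostly on that prior. For Mcl1, the SD of the vehicle arrays was 0.0062 and the SE at 10 µM 0.14. In bulk RNA, fewer cells of a type and less RNA per cell cannot be told apart.

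**Figure D1:**
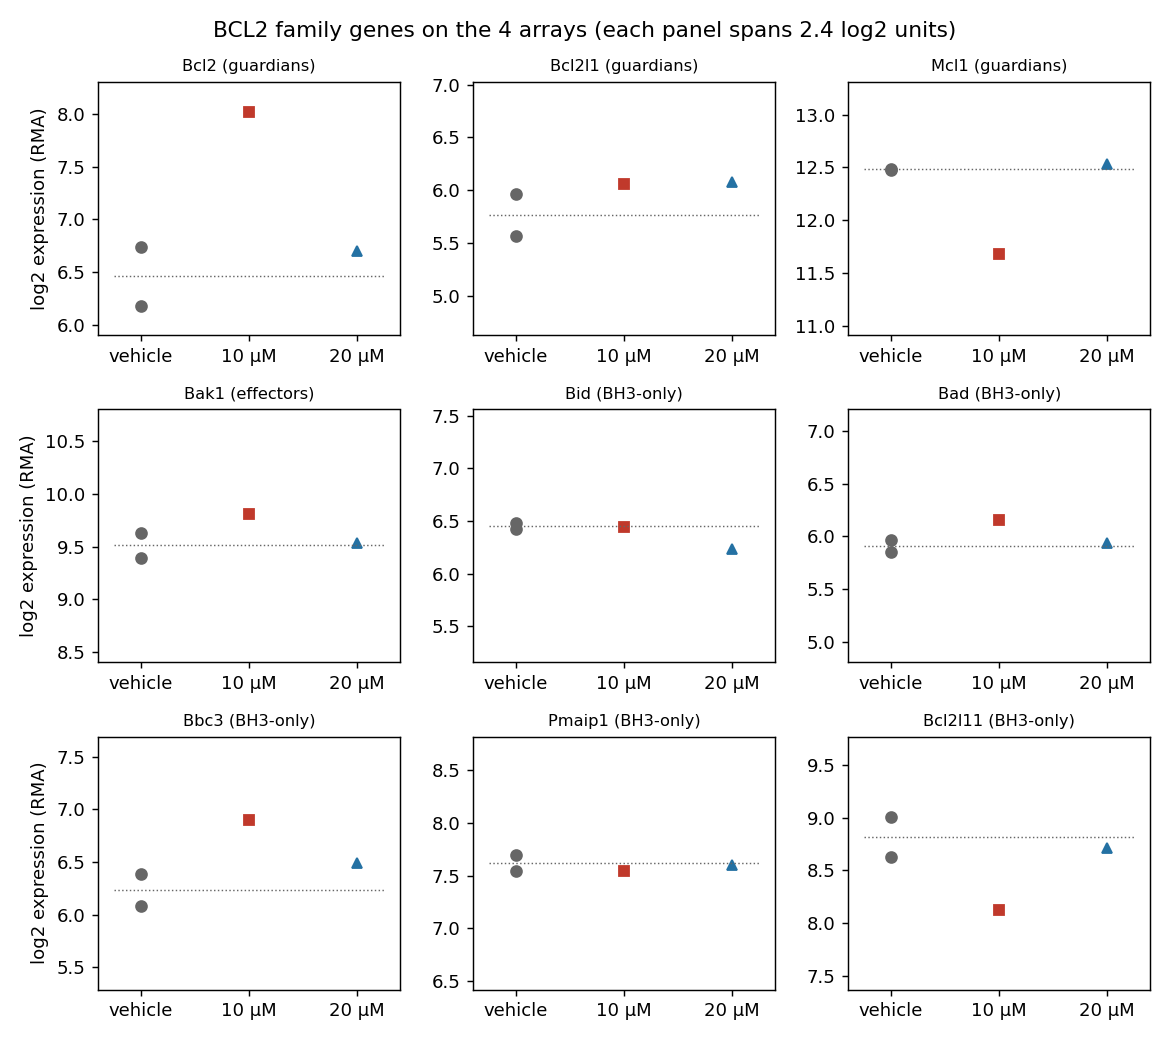
Log2 expression (vertical axis, each panel on its own range of the same width) of the 9 measured genes on the 2 vehicle arrays (grey circles, dotted line at their mean), the 10 µM array (red square) and the 20 µM array (blue triangle). Bcl2 at 8.02 stands above and Mcl1 at 11.68 below the other arrays at 10 µM, while the 20 µM values lie at or near the vehicle values.

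Bcl2, which encodes the founding guardian of the family, lies at chr1:106538176-106714290 on GRCm38.p6. Its log2 level was 6.18 and 6.74 with vehicle, 8.02 at 10 µM and 6.70 at 20 µM. The 10 µM array was the highest, and the 20 µM array lay between the vehicle arrays, which themselves differed by 0.56. The gap between the vehicle arrays was wide, as 3.58% of all genes differed by 0.5 or more there. Bcl2 rose at 10 µM by 1.56 ± 0.25 (limma SE, 1 array against 2), or 2.95-fold, with an adjusted p of 0.04998 at a threshold of 0.05. With a robust variance prior the adjusted p was 0.0516, which ends the call. The call was kept with dim probe sets left out, equal array medians, cyclic loess, a variance trend and the mean of both probe sets. Taken array by array the difference was 1.84 against vehicle 1 and 1.28 against vehicle 2. In absolute size, 0.383% of all genes differed as much at 10 µM. At 20 µM the difference was 0.24, with a 95% interval of -0.36 to 0.85.

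Bcl2 has a second, dim probe set, at 3.82 and 3.72 with vehicle, 4.38 at 10 µM and 4.13 at 20 µM. All of its values lie below the median of all values, 5.04. It was also highest at 10 µM, where it differed from its vehicle mean by 0.61. Unlike the brighter one it stood above both vehicle arrays at 20 µM, with a difference of 0.36 from that mean. With the mean of both probe sets the difference at 10 µM was 1.08 (limma adjusted p = 0.0425).

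Mcl1, the short-lived guardian, lies at chr3:95656944-95663179. Its log2 level was 12.48 and 12.49 with vehicle, 11.68 at 10 µM and 12.53 at 20 µM. The 10 µM array was below both vehicle arrays and the 20 µM array slightly above both, and the vehicle arrays agreed to 0.01. The difference at 10 µM was -0.80 ± 0.14 (limma SE), or 1.74-fold lower, with a 95% interval of -1.15 to -0.45 and an adjusted p of 0.0663. It passed the threshold with dim probe sets left out (limma adjusted p = 0.0156), with equal array medians (0.0355), with cyclic loess (0.0395) and with a variance trend (0.00398), and missed it with the mean of both probe sets (0.0569) and with a robust variance prior (0.0685). The dimmer probe set of Mcl1 read 8.81 and 8.91 with vehicle, 8.01 at 10 µM and 9.19 at 20 µM. Its difference at 10 µM was -0.85, close to that of the brighter probe set, and at 20 µM it was 0.33.

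Bcl2l1 (chr2:152758732-152833803), which encodes BCL-XL, had log2 levels of 5.56 and 5.96 with vehicle, 6.06 at 10 µM and 6.08 at 20 µM. Both nimodipine arrays were above both vehicle arrays, but only by 0.10 and 0.12 above vehicle 2, while the vehicle arrays differed by 0.40. The differences from the vehicle mean were 0.30 at 10 µM and 0.32 at 20 µM (limma adjusted p = 0.532 and 0.795). The 95% intervals, -0.20 to 0.79 and -0.18 to 0.81, leave room for a change in either direction.

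**Figure D2:**
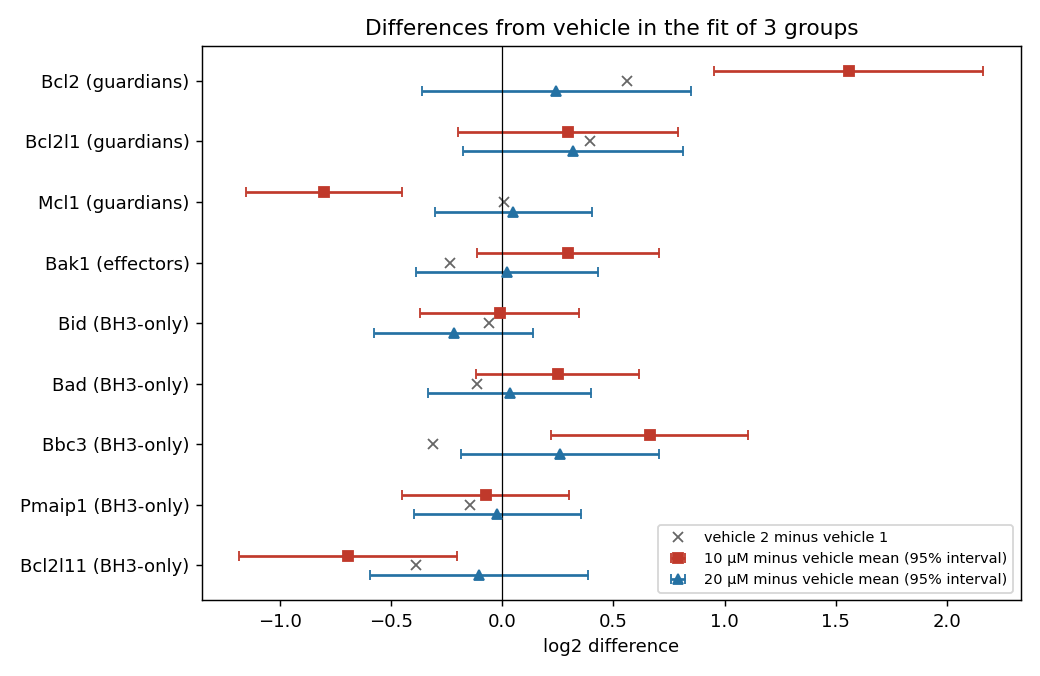
Log2 difference from the vehicle mean at 10 µM (red squares) and 20 µM (blue triangles) for each measured gene, with 95% intervals of the limma fit of 3 groups, and the difference of vehicle 2 from vehicle 1 (crosses). The 10 µM intervals of Bcl2 and Bbc3 lie above 0 and those of Mcl1 and Bcl2l11 below it, before adjustment over all genes; every 20 µM interval spans 0.

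Bak1 (chr17:27019812-27028627), the measured effector, had log2 levels of 9.63 and 9.39 with vehicle, 9.81 at 10 µM and 9.53 at 20 µM. The 10 µM array was the highest, but only 0.18 above vehicle 1. The differences were 0.30 at 10 µM, with a 95% interval of -0.11 to 0.70, and 0.02 at 20 µM, with one of -0.39 to 0.43. The vehicle arrays differed by -0.24.

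Of the 5 BH3-only genes, 2 were higher and 3 lower than the vehicle mean at 10 µM, and also at 20 µM. Bbc3 (chr7:16308398-16318334) encodes PUMA, a p53 target that binds all guardians. Its log2 level was 6.39 and 6.08 with vehicle, 6.90 at 10 µM and 6.49 at 20 µM. Both nimodipine arrays were above both vehicle arrays. The difference was 0.66 ± 0.18 (limma SE) at 10 µM, or 1.58-fold, with an adjusted p of 0.158, and 0.26 at 20 µM (adjusted p = 0.811).

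Bcl2l11 (chr2:128126038-128162547) encodes BIM, a BH3-only activator whose gene is a known target of FOXO3 and of CHOP. Its log2 level was 9.01 and 8.62 with vehicle, 8.12 at 10 µM and 8.71 at 20 µM. The 10 µM array was the lowest and the 20 µM array lay between the vehicle arrays. The difference was -0.69 ± 0.20 (limma SE) at 10 µM, or 1.61-fold lower, with an adjusted p of 0.173. It was -0.88 against vehicle 1 and -0.50 against vehicle 2, which differed by -0.39 from each other.

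Bad encodes a BH3-only protein held inactive by phosphorylation and 14-3-3 proteins. Its log2 level was 5.96 and 5.85 with vehicle, 6.16 at 10 µM and 5.94 at 20 µM, with a difference of 0.25 at 10 µM (limma adjusted p = 0.470). Bid, which links death receptors to the mitochondrion after cleavage, read 6.48 and 6.42 with vehicle, 6.44 at 10 µM and 6.23 at 20 µM. It was the only gene of the 9 to be lower than both vehicle arrays at 20 µM, by -0.22 from their mean (limma adjusted p = 0.804). Pmaip1, which encodes NOXA, the BH3-only partner of MCL1 and A1, read 7.69 and 7.55 with vehicle, 7.55 at 10 µM and 7.60 at 20 µM. Its differences were -0.07 at 10 µM and -0.02 at 20 µM, with 95% intervals of -0.45 to 0.30 and -0.40 to 0.35.

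By role, the median difference at 10 µM was 0.30 for the 3 guardians, 0.30 for the 1 measured effector and -0.01 for the 5 BH3-only genes, beside 0.01 for all genes. At 20 µM the medians were 0.24, 0.02 and -0.02, beside -0.00 for all genes. The vehicle arrays differed by medians of 0.40, -0.24 and -0.15 in the same roles. The guardian median thus did not exceed the difference between the vehicle arrays, and it hides the opposite signs of Bcl2 and Mcl1 at 10 µM. A single array at 10 µM lay beyond both vehicle arrays for 8 of the 9 genes, 5 above and 3 below, beside 74.5% of all genes. Among those below, Pmaip1 was at only -0.0007 from vehicle 2. At 20 µM the count was 4 of 9, with Bcl2l1, Mcl1 and Bbc3 above and Bid below, beside 69.6% of all genes. A log2 difference of 1 was passed by 1 of 9 at 10 µM, beside 1.57% of all genes, and 0 of 9 at 20 µM, beside 0.0857%.

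With both doses as 1 group against vehicle, limma called 0 of the 9 genes and 0 of all genes (0%). At an unadjusted p under 0.05 the counts were 0 of 9 and 5.37% of all genes. Bcl2 averaged 7.36 ± 0.93 on the nimodipine arrays and 6.46 ± 0.40 on the vehicle arrays (SD, n = 2 each, limma adjusted p = 0.792). The 2 nimodipine arrays were of different doses, so their SD is the spread between doses, not between replicates. The test counts that difference as noise, so its lack of calls cannot tell whether either dose had an effect. Both nimodipine arrays were above both vehicle arrays for Bcl2l1 and Bbc3, 2 of 9, beside 19.2% of all genes, and 0 of 9 were below both, beside 18.2%.

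The doses were also compared directly in the fit of 3 groups, where 0 of 9 genes passed the threshold, beside 0.316% of all genes; 3 of 9 had an unadjusted p under 0.05, beside 13.7%. Bcl2 was lower at 20 µM than at 10 µM by -1.32, with a 95% interval of -2.01 to -0.62 (limma adjusted p = 0.141). Mcl1 was higher at 20 µM by 0.85, with an interval of 0.45 to 1.26 (limma adjusted p = 0.116), and Bcl2l11 by 0.59, with an interval of 0.02 to 1.15 (limma adjusted p = 0.349). With dim probe sets left out the adjusted p was 0.0382 for Bcl2 and 0.0289 for Mcl1, and with a variance trend it was 0.0469 and 0.00885. The other 4 alternatives missed the threshold for both genes, with adjusted p between 0.0875 and 0.163 for Bcl2 and between 0.0773 and 0.119 for Mcl1.

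Among 11 measured relatives of the family, 0 were called higher and 2 lower at 10 µM, beside 0.509% and 1.08% of all genes, with medians of -0.13 at 10 µM and -0.04 at 20 µM. Bnip3, a BH3-like protein of mitophagy and a hypoxia target, had log2 levels of 10.82 and 10.42 with vehicle, 9.07 at 10 µM and 10.30 at 20 µM. It fell by 1.55 ± 0.20 (limma SE, adjusted p = 0.0342) at 10 µM. Bmf, a BH3-only gene, read 7.38 and 7.30 with vehicle, 6.33 at 10 µM and 7.29 at 20 µM. It fell by 1.00 ± 0.15 at 10 µM (limma adjusted p = 0.0428). Each was lower at 10 µM than on the other 3 arrays by more than the vehicle arrays differed. The BH3-only gene Bik was at -0.37 and the dim genes Hrk and Bcl2l15 at 0.51 and -0.22 from the vehicle mean at 10 µM. At 20 µM the furthest were Bnip3 and Bcl2l15, each at -0.32. Bcl2a1a, an A1 gene of a cluster whose copies are nearly identical, was at 0.08 at 10 µM and -0.29 at 20 µM. Its signal may include RNA of its copies, and 2 further probe sets that the annotation shares between A1 genes were not used.

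**Figure D3:**
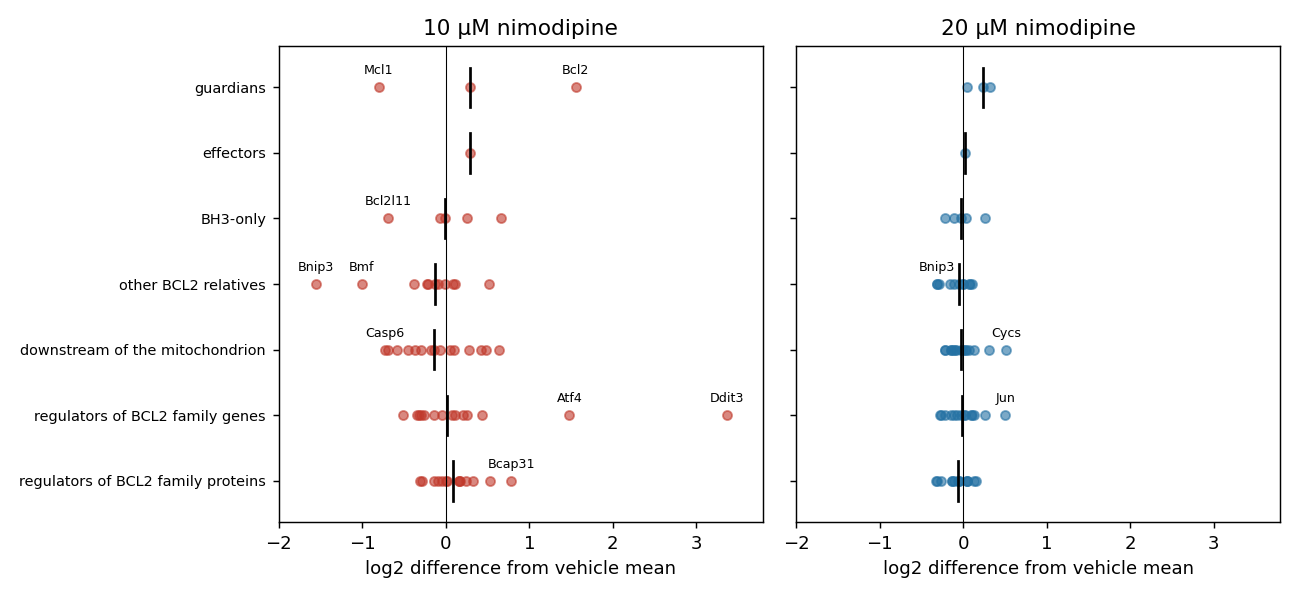
Log2 difference from the vehicle mean at 10 µM (left) and 20 µM (right) for the measured genes of each list, 1 dot a gene, with a black bar at the list's median. At 10 µM Ddit3 and Bcl2 lie furthest to the right and Bnip3 furthest to the left, and at 20 µM no gene of these lists passes 1 in either direction.

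A list of 15 measured genes covered steps after the mitochondrial membrane opens, blockers of those steps and outer membrane channels (Vdac1, Vdac2 and Vdac3). Of these 15, 0 were called at either dose, beside 1.59% of all genes at 10 µM and 0% at 20 µM. At an unadjusted p under 0.05 the counts were 8 of 15 at 10 µM, beside 16.9%, and 1 of 15 at 20 µM, beside 6.39%. At 10 µM 6 were higher and 9 lower than the vehicle mean, and the median was -0.14. Apaf1, the scaffold of the apoptosome, read 8.13 and 7.97 with vehicle, 7.35 at 10 µM and 7.83 at 20 µM, a difference of -0.69 at 10 µM (limma adjusted p = 0.106). Casp6, an executioner caspase, was at -0.73 from the vehicle mean at 10 µM (limma adjusted p = 0.0925). Of the inhibitors of apoptosis, Birc5 (survivin, also a mitotic protein) was at -0.58, Birc2 at -0.45 and Xiap at -0.36, while Birc3 was at 0.48 (limma adjusted p between 0.162 and 0.285). The outer membrane channel gene Vdac3 was at 0.64. Cycs, which encodes cytochrome c, was the furthest of these genes at 20 µM. It read 10.61 and 10.68 with vehicle, 11.07 at 10 µM and 11.16 at 20 µM. Both nimodipine arrays stood above both vehicle arrays, by 0.43 at 10 µM and 0.51 at 20 µM from their mean (limma adjusted p = 0.227 and 0.762). Endog, a mitochondrial nuclease, was at 0.32 at 20 µM.

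Of 14 measured transcription factors that control family genes, 2 were called at 10 µM, both higher, beside 0.509% of all genes, and 0 at 20 µM, beside 0%. Ddit3 (CHOP) had log2 levels of 7.32 and 7.24 with vehicle, 10.64 at 10 µM and 7.41 at 20 µM. Atf4 read 8.86 and 8.84 with vehicle, 10.33 at 10 µM and 8.87 at 20 µM. They rose by 3.36 and 1.48 at 10 µM (limma adjusted p = 0.00286 and 0.0197). CHOP is known in other cells to lower BCL2 and to raise BIM. Here the array with the highest Ddit3 had the highest Bcl2 and the lowest Bcl2l11, a description over 4 arrays. Whether CHOP or any other factor of this list acted on these genes was not tested. Foxo3, another known activator of the BIM gene, was at -0.51 at 10 µM (limma adjusted p = 0.243), Myc at 0.44 and Stat5a at -0.34. At 20 µM the furthest were Jun at 0.50 and Stat5a at -0.27.

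Of 14 genes for proteins that modify or partner the family, 0 were called at either dose, beside 1.59% of all genes at 10 µM and 0% at 20 µM. Bcap31, an endoplasmic reticulum partner of BCL2, read 9.38 and 9.31 with vehicle, 10.13 at 10 µM and 9.30 at 20 µM, a difference of 0.79 at 10 µM (limma adjusted p = 0.0723). Tmbim6 (BAX inhibitor 1) was at 0.53 and Bag1, a BCL2-binding co-chaperone, at 0.32. Usp9x and Fbxw7, which stabilise and help degrade MCL1 protein, were at -0.29 and -0.31. At 20 µM the furthest were Ppp3cb, a calcineurin subunit, at -0.32 and Mapk8 (JNK1) at -0.31.

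Bcl2 was the only one of the 9 genes with a range of 1 or more over the 4 arrays. The genes nearest to it by Euclidean distance between log2 profiles centred on the vehicle mean, over 4 arrays and 11659 genes ranked, were Ifitm6 (0.101), Fas (0.254), Slc43a3 (0.293) and Casp4 (0.303). Ifitm6 is an interferon-induced transmembrane gene, Fas a death receptor, Slc43a3 a purine transporter and Casp4 an inflammatory caspase (caspase-11 in the mouse). At 10 µM they differed from the vehicle mean by 1.55, 1.75, 1.55 and 1.64, and at 20 µM by 0.29, 0.21, 0.06 and 0.14, beside 1.56 and 0.24 for Bcl2. All were highest on the 10 µM array and had a higher value on vehicle 2 than on vehicle 1. The genes were picked by these same values, so these likenesses are not a separate result.

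**Figure D4:**
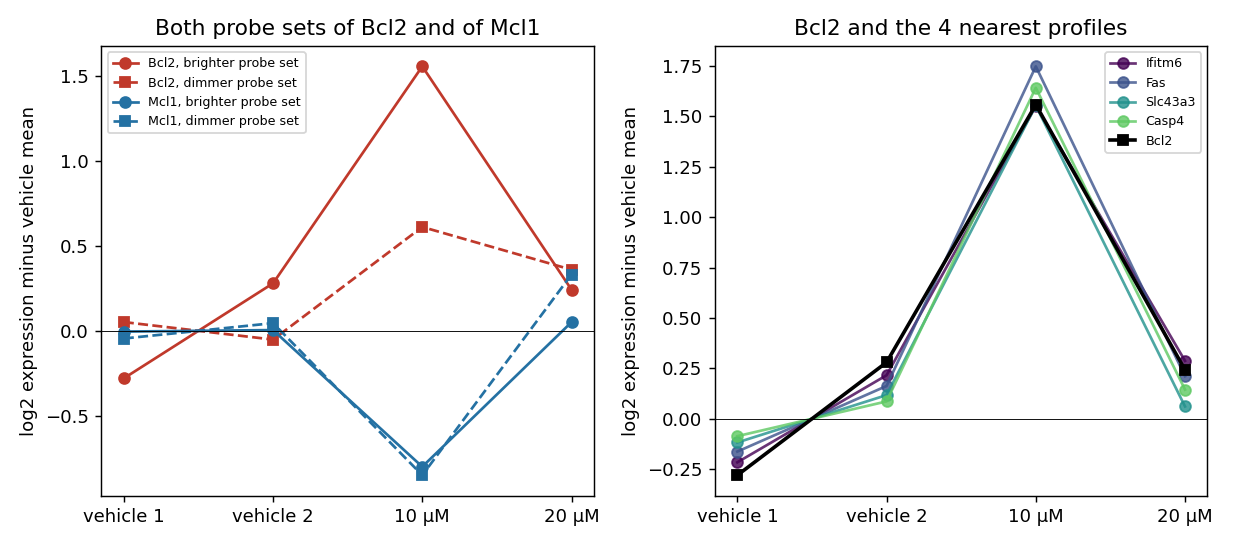
Log2 expression minus the vehicle mean on the 4 arrays, for the brighter (solid) and dimmer (dashed) probe sets of Bcl2 and Mcl1 on the left, and for Bcl2 with its 4 nearest genes on the right. Both probe sets of each guardian move the same way at 10 µM, by 1.56 and 0.61 for Bcl2 and by -0.80 and -0.85 for Mcl1.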

How the data were processed

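TRIzol-extracted total RNA of 4 N9 samples was labelled with the WT PLUS kit, per the labels' protocols. The authors deposited log2 values for each probe set; the submitters' processing notes name RMA and Affymetrix Expression Console 1.2.1.20. RMA gives all arrays like distributions and hides a global shift; array medians lay between 5.02 and 5.06. Of 41345 probe sets, 23521 had 1 gene symbol; the one with the highest mean was taken per gene, giving 22180 genes. RefSeq (GRCm38.p6) supplied gene positions and promoters, and all 9 measured genes matched it by Entrez identifier. limma 3.58.1 (R 4.3.3; lmFit, eBayes) was fitted on all genes, as 2 nimodipine against 2 vehicle arrays and as 3 groups, with Benjamini-Hochberg adjustment and a threshold of 0.05, and was tested on simulated data. The simulated arrays shared the same spread within a gene, so that simulation cannot check the assumption about lone arrays. Samples were grouped by the treatment labels. Genes named beyond the family were the 5 furthest from vehicle at 10 µM and the 2 furthest at 20 µM of each list; Bcl2a1a, Birc2 and Xiap were chosen after their values were seen. Members and lists were chosen with earlier results of these data known. The number of arrays limits the precision.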

Additional observations from a re-analysis of the deposited data

Results flagged for a closer look

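In the direct comparison of the doses (20 µM minus 10 µM, limma fit of 3 groups), Ddit3 differed by -3.23 (adjusted p = 0.00701) and Atf4 by -1.46 (adjusted p = 0.0465), so their values at the doses differed by the test itself. Mcl1 differed by 0.85 (adjusted p = 0.116); it was lower than both vehicle arrays at 10 µM and higher than both at 20 µM, a difference that missed the test. The doses share the vehicle arrays, and each has 1 array.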

How the results depend on the processing

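Of the alternatives to the fit of 3 groups, leaving out dim probe sets, equal array medians, cyclic loess and a variance trend called 1277, 654, 558 and 1175 genes at 10 µM (353 in the fit as reported) and 734, 272, 243 and 731 between the doses (70). The cause was not tested. With dim probe sets left out, fewer genes are tested; 6 differed by 1 or more between the vehicle arrays (25 with all), and both nimodipine arrays lay beyond both vehicle arrays for 4942 (8296 with all). At 20 µM, 37 and 38 genes lay past 1 without vehicle 1 or vehicle 2, beside 19 with both. With nimodipine as 1 group, limma called 0 to 353 genes when each array was left out in turn; 353 were called without the 20 µM array, when the fit is that of 10 µM against vehicle and Bcl2 has an adjusted p of 0.04998. Without vehicle 1, vehicle 2 or the 10 µM array it called 0. Leaving out a vehicle array in the fit of 3 groups leaves no residual degree of freedom and gives no test. Among the 9 genes, small differences changed sign: Bak1 at 20 µM to -0.0079 with equal array medians, Pmaip1 at 20 µM to 0.022 with cyclic loess, Pmaip1 under nimodipine to 0.026 without vehicle 1 (range over left-out arrays -0.120 to 0.026), and Mcl1 under nimodipine to 0.051 without the 10 µM array (range -0.801 to 0.051). Alternatives for Bmf, Bnip3, Ddit3 and Atf4 were added after seeing the data, and these stayed called at 10 µM in all 6. No paired analysis was possible because the labels number the vehicle arrays only.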
